A study of Caenorhabditis elegans with 2 samples.

Results

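The genes described here are 9 genes of the CDC-48 segregase and of endoplasmic reticulum (ER) associated degradation in the nematode Caenorhabditis elegans: cdc-48.1, cdc-48.2, ufd-1, npl-4.1, npl-4.2, sel-1, sel-11, cup-2 and der-2. They were taken by symbol from the Ensembl annotation, and are 9 of its 19973 protein-coding genes. They were chosen by their function together with the signal and summit positions of their peaks in these same samples, so every value at them is a description and none was tested. The study asked where 1 tagged protein sits on the genome. In strain RW12180, CRISPR had inserted a tag of TY1, EGFP and 3xFLAG into a chromosome I gene, named dox-1 in the strain's genotype and dxbp-1 where the labels give the edited gene. Bleached embryos were hatched into starved L1 larvae to synchronise them, and whole young adults were collected at 66 hours. Chromatin sheared by sonication into pieces of 200 to 800 bp was precipitated with an antibody against GFP. There were 2 biological replicates of this 1 group and no second genotype, treatment or stage. Whole worms were used, so strong binding in few cells and weak binding in many cells cannot be told apart.

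CDC-48, known as p97 or VCP in mammals, is a hexameric AAA ATPase that pulls ubiquitinated proteins out of membranes and complexes and passes them to the proteasome. UFD-1 and NPL-4 form the adaptor that brings it to ubiquitin chains. In ER-associated degradation, misfolded proteins of the ER are recognised, moved back to the cytosol, ubiquitinated by a membrane-bound ligase and extracted by CDC-48. In the worm, SEL-11 is the ligase (Hrd1 in yeast), SEL-1 is its partner (Hrd3 in yeast, SEL1L in mammals), and CUP-2 and DER-2 are derlins, membrane proteins of the translocation step. The worm has a pair of closely related CDC-48 genes and a pair of NPL-4 genes. Loss of either CDC-48 gene alone is tolerated, and loss of both is lethal.

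The promoters of the CDC-48 pair are shown first, since they hold the largest contrast among the 9 genes: a peak of very high signal at cdc-48.1 and no thresholded peak at cdc-48.2. Both stretches are the 250 bases just before the annotated start, 5′ to 3′ in the direction of transcription, from the RefSeq genome on WBcel235, the assembly that the peak lists call ce11. That of cdc-48.1 is chrII:10563408-10563657 on the minus strand, and that of cdc-48.2 is chrII:8138246-8138495 on the plus strand. Capitals mark matches, on either strand, to any of 10 short motifs that are spelled out with the motif counts.
cdc-48.1: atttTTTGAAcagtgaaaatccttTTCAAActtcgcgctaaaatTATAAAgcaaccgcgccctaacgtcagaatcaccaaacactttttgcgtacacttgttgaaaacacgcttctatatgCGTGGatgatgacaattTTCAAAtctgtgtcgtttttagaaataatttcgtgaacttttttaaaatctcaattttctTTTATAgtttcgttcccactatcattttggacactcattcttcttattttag
cdc-48.2: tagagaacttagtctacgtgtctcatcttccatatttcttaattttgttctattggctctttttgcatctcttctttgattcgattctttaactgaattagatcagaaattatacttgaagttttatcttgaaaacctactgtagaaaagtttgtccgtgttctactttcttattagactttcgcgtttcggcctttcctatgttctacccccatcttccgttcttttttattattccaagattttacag
The cdc-48.1 stretch holds 6 motif matches and the cdc-48.2 stretch 0. Most of the 6 are to TTTGAA or TATAAA, which 62.5% and 37.9% of all 300 bp promoters hold. Whether the matches bear on the peaks was not tested. Both end in the letters ag directly before the annotated start. Many worm transcripts receive a spliced leader at such a place, so an annotated start need not be where transcription begins, and all distances here are to annotated starts.

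The next sequence is the 101 bases around the stronger conservative summit inside sel-11, chrV:11768765-11768865 on the plus strand, shown because no other of the 9 genes had a conservative summit within its own span.
sel-11: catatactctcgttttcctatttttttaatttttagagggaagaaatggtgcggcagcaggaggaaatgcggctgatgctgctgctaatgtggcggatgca
No motif matched in these bases, so none are in capitals.

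The last pair are the 100 bases around the outermost annotated starts of npl-4.1 (chrII:5631301-5631400, plus strand) and npl-4.2 (chrII:5622839-5622938, plus strand), shown because the genes are near-identical copies. The single capital in each marks the 1 base at which they differ.
npl-4.1: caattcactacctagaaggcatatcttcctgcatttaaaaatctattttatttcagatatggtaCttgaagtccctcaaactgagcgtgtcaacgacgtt
npl-4.2: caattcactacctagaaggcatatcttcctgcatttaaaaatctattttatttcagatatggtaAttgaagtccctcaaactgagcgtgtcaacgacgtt

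Each peak in the authors' lists has an interval, a summit and a signal on the authors' own scale. They carry no counts of reads, and sequencing depth is therefore unknown. Peaks called from both samples made up a conservative set of 3291, whose median signal was 255.6, and a larger set of 4441. The thresholded lists of the single samples held 3105 peaks in replicate 1 and 2983 in replicate 2. They were cut at an irreproducible discovery rate (IDR) of 0.01, a measure of how likely a peak is not to be found again when calling is repeated. Each list came from 1 sample's alignment. Its IDR therefore does not measure whether a peak recurs in the other biological replicate. The ranked lists behind them held 56265 and 65301 peaks and reach far below any threshold: 54.5% of all protein-coding genes had a ranked summit of replicate 1 in the gene or up to 1000 bp upstream, and 65.9% had one of replicate 2. A ranked summit of replicate 1 was present at 7 of the 9 genes and a summit of replicate 2 at 8.

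Of the 9 genes, 3 had a summit of the conservative set in the gene or up to 1000 bp upstream, against 13.4% of all protein-coding genes. These were cdc-48.1, cup-2 and sel-11. In the larger set there were 2 of 9, cdc-48.1 and cup-2, against 17.1% of all genes. The same 2 genes had a conservative summit in a promoter, taken as 1000 bp upstream to 200 bp downstream of a transcript start, against 10.9% of all genes. They were also the 2 genes with a thresholded summit in replicate 1 (12.6% of all genes) and in replicate 2 (12.5% of all genes). The windows searched had a median length of 3071 bp over the 9 genes and 3027 bp over all genes. The genes were listed with these peaks known, so nothing is read from the counts.

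**Figure D1:**
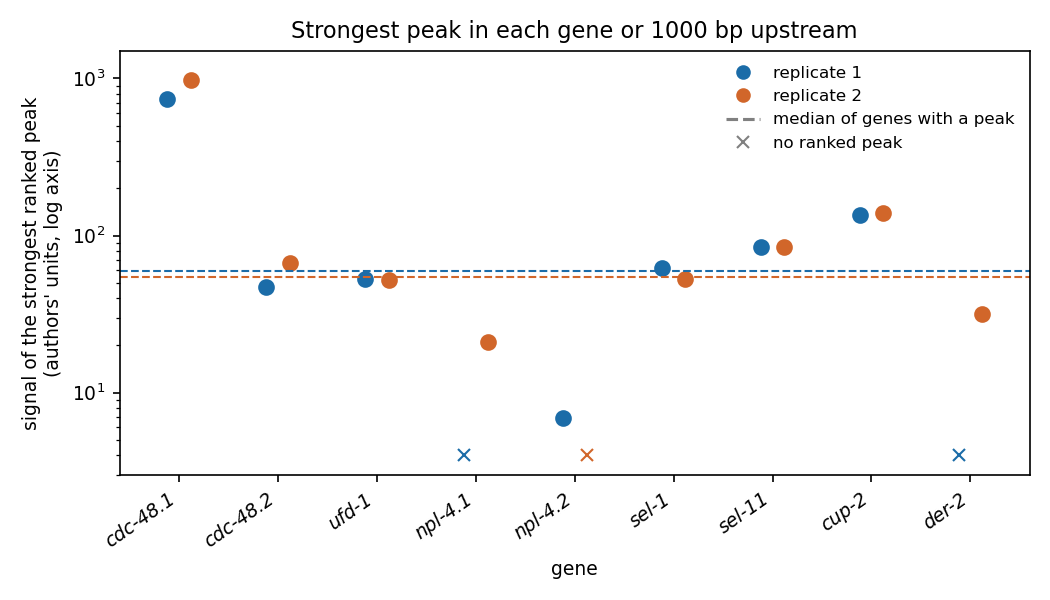
Signal of the strongest ranked peak in each of the 9 genes or up to 1000 bp upstream, in the authors' units on a log axis, with 1 point per replicate and a cross where the replicate's list held none. The dashed lines are the medians over all genes with a ranked peak, 59.5 in replicate 1 and 54.6 in replicate 2; cdc-48.1, cup-2 and sel-11 lie above both lines in both replicates.

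At cdc-48.1 (WBGene00007352, chrII:10560036-10563407, minus strand), the CDC-48 gene with the higher signal, replicate 1 had a signal of 742.2 and replicate 2 one of 977.8. Replicate 2 was the higher, and the mean was 860.0 ± 166.6 (SD, n = 2). This peak was number 31 by signal among the 56265 ranked peaks of replicate 1, and number 11 among the 65301 of replicate 2. It held place 18 of 3291 by signal in the conservative set, at 1722.5. Its IDR was 1e-05 in both replicates. The 394 bp interval, chrII:10563353-10563746, had its summit 165 bp upstream of the start, and the replicates' own summits lay 154 and 155 bp upstream, 1 bp apart. Over the 3234 conservative peaks with a ranked peak in both replicates, the median distance between the replicates' summits was 27 bp, and 25.6% lay within 10 bp. The next gene upstream on the same strand, C06A1.6, ended 704 bp before the start of cdc-48.1, so the summit was intergenic. The other gene with this summit in its window was C06A1.9, a snoRNA gene inside cdc-48.1 whose start lay 508 bp from it.

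Among 2644 protein-coding genes with a conservative summit and a value in both replicates, 99.4% had a lower mean signal than cdc-48.1. The nearest to it in both replicates' log2 signal was the peak shared by rpl-20, a gene for a large-subunit ribosomal protein, and Y17G9B.5, with 821.5 in replicate 1 and 974.1 in replicate 2. Inside cdc-48.1 the ranked lists held weaker peaks. The strongest pair of summits there, 3064 and 3112 bp downstream of the start, had a signal of 67.3 in replicate 1 and 38.3 in replicate 2, and neither passed the IDR threshold. Replicate 2 had a stronger single peak 3335 bp downstream, in the 3′ UTR, with a signal of 90.2, which also missed the threshold and had no replicate 1 summit within 50 bp.

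The other CDC-48 gene, cdc-48.2 (WBGene00008053, chrII:8138496-8141230, plus strand), had no peak in either merged set or in either thresholded list. Its strongest ranked peaks had a signal of 46.8 in replicate 1 and 67.3 in replicate 2, with a mean of 57.0 ± 14.5 (SD, n = 2). They lay in the last coding exon, exon 5, 2638 and 2631 bp downstream of the start, and not in the promoter. In its promoter, a pair of summits 281 and 237 bp upstream had 42.3 in replicate 1 and 29.1 in replicate 2, with a mean of 35.7 ± 9.29 (SD, n = 2). Every promoter value of cdc-48.2 in these lists was below every replicate value of the cdc-48.1 promoter peak. The coding sequences of the pair, 2427 and 2430 bases long, were identical at 75.5% of aligned positions. Their 300 bp promoters were identical at 51.2%, gaps counted as differences. The windows were almost wholly unique in the genome: 96.9% of the 31-base words of the cdc-48.1 window and 99.8% of those of the cdc-48.2 window occur once.

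**Figure D2:**
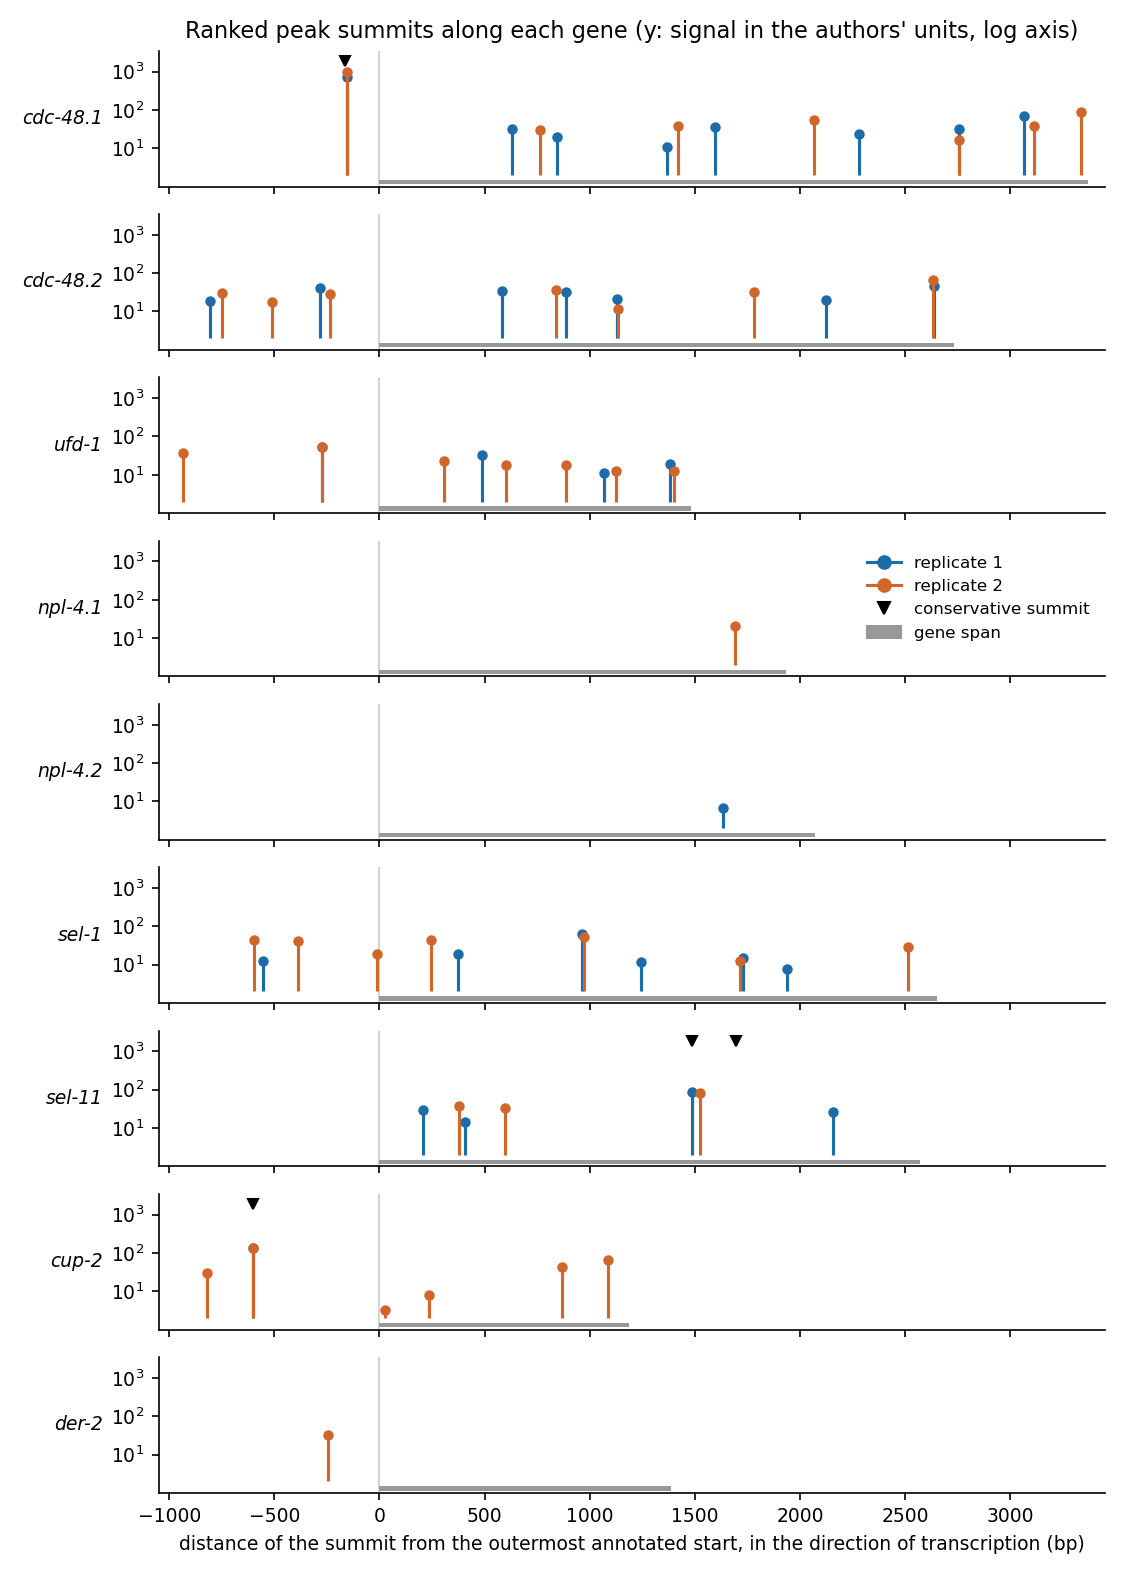
Ranked summits along each of the 9 genes, by distance in bp from the outermost annotated start (x) and signal in the authors' units on a log axis (y), with 1 colour per replicate. Black triangles mark conservative summits and grey bars the gene span; the cdc-48.1 pair at 154 and 155 bp upstream, with signal 742.2 and 977.8, stands above all others.

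The adaptor genes had no thresholded peak. At ufd-1 (WBGene00006733, chrIV:12329408-12330890, minus strand), the strongest ranked peak had its summit 274 bp upstream of the start in both replicates, with a signal of 53.1 in replicate 1 and 52.0 in replicate 2. The mean was 52.5 ± 0.759 (SD, n = 2), and the IDR was 0.615 and 0.485, far from the threshold. The gene F19B6.1 on the same strand ends 85 bp before ufd-1, so this summit lay inside F19B6.1, annotated as a uridine kinase. Of all genes with a ranked peak, 42.0% had a lower strongest signal in replicate 1 and 46.2% in replicate 2.

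At npl-4.1 (WBGene00019120, chrII:5631351-5633284) replicate 1 had no ranked peak and replicate 2 had 1, with a signal of 21.0, in an intron 1686 bp downstream of the nearest start. At npl-4.2 (WBGene00019121, chrII:5622889-5624959) replicate 1 had 1 ranked peak, with a signal of 6.90, in an intron 1626 bp downstream, and replicate 2 had none. No promoter peak was listed for either gene in either replicate. The copies are nearly the same sequence: 1579 of the 1587 coding bases were identical, and 299 of the 300 promoter bases. The promoter stretch runs from 250 bases before to 50 after the outermost start. Its 1 differing base lies after the start, so the 250 bases before the start are identical. In the npl-4.1 window 9.17% of 31-base words occur once in the genome, and in the npl-4.2 window 11.7%, against a median of 99.5% over all genes. About 1.11% of all genes had a lower share than npl-4.1 and 1.18% a lower share than npl-4.2. Among the 585 genes with under 50% unique words, 38.1% had a ranked peak in replicate 1 and 39.8% in replicate 2. Among the other 19388 genes, 55.0% and 66.7% did. How reads that match both copies were placed is not stated, and the part of this in the low values at the npl-4 genes was not tested.

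**Figure D3:**
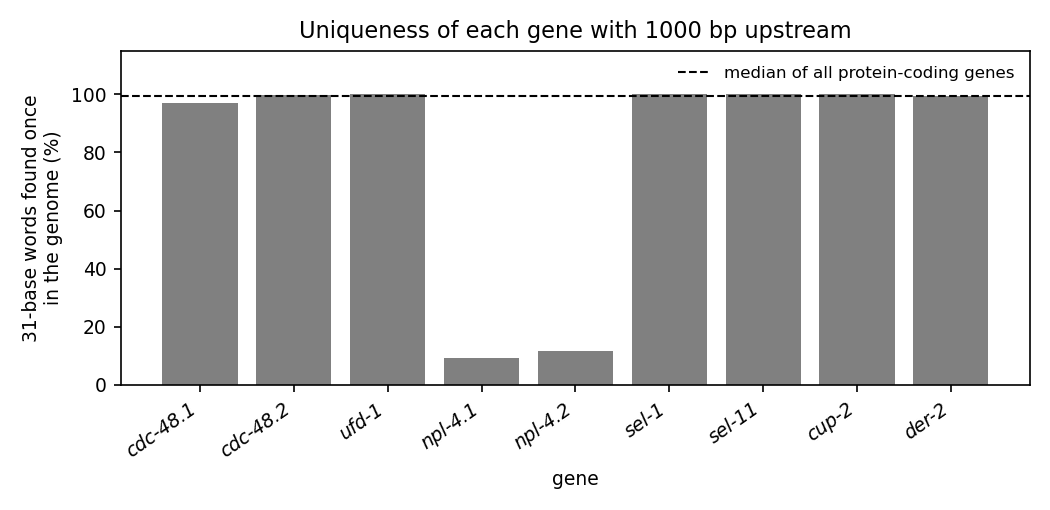
Percent of the 31-base words of each gene with its 1000 bp upstream that occur once in the genome, 1 bar per gene, with the median over all protein-coding genes (99.5%) as a dashed line. The bars of npl-4.1 and npl-4.2 stand at 9.17% and 11.7%, and the other 7 at 96.9% or more.

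The ligase gene sel-11 (WBGene00004768, chrV:11767328-11769899, plus strand) had a conservative peak inside the gene, and no ranked summit in its promoter in either replicate. Replicate 1 had a signal of 84.6 and replicate 2 one of 84.0 at this peak, with a mean of 84.3 ± 0.419 (SD, n = 2). The interval was chrV:11768597-11769032, with its summit in coding exon 5, 1487 bp downstream of the start. The replicates agreed closely in signal but less in place, since their summits lay 38 bp apart, and 65.0% of conservative peaks had replicate summits within 40 bp. This was a weak peak of its set, number 3071 of 3291, and 2.65% of the 2644 genes had a lower mean. A second conservative summit in the same exon, 1694 bp downstream of the start, had a signal of 7.49 and was number 3274. Neither was in the larger set or in a thresholded list, and the IDR of the ranked peaks was 0.0565 in replicate 1 and 0.0380 in replicate 2. The gene nearest to sel-11 in both replicates' signal was phf-10, a PHD finger gene, with 85.2 and 84.1.

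The partner gene sel-1 (WBGene00004759, chrV:12560732-12563383, plus strand), first found as a negative regulator of the Notch receptor LIN-12, had no thresholded or merged-set peak. Its strongest ranked peaks lay in coding exon 4, 965 and 971 bp downstream of the start, with a signal of 62.4 in replicate 1 and 53.0 in replicate 2. The mean was 57.7 ± 6.65 (SD, n = 2). By the strongest peak of each gene, sel-11 was thus the lowest of the 3 genes in the conservative set, and sel-1, cdc-48.2 and ufd-1 were those just outside it. The values of these 3 overlapped between replicates, so their order is not resolved, while both values of the stronger sel-11 peak were above all of theirs.

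The derlin gene cup-2 (WBGene00000843, chrI:10398990-10400177, minus strand), named for a defect in uptake by coelomocytes, the scavenger cells of the body cavity, had a conservative peak upstream. Its signal was 135.2 in replicate 1 and 138.4 in replicate 2, with a mean of 136.8 ± 2.28 (SD, n = 2). The replicates' summits lay 602 and 603 bp upstream of the start, 1 bp apart, and the IDR was 0.00179 and 0.00194. The conservative peak, chrI:10400560-10400995, had its summit 601 bp upstream and a signal of 292.1, number 1282 of 3291. It was a peak of middling rank, since 45.3% of the 2644 genes had a lower mean. The gene nearest to it in both replicates was cdc-14, which encodes a phosphatase of cell division, with 135.5 and 138.7.

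This summit cannot be given to cup-2 alone. The divergent gene tag-353, annotated in RefSeq as a ubiquitin-like domain-containing protein, starts 286 bp from it and is the nearer protein-coding gene. The 886 bp between the pair also hold the noncoding RNA gene F25D7.11, whose span contains the summit 62 bp downstream of its start, and F25D7.9, which starts 159 bp from it. With 500 bp upstream in place of 1000 bp, 2 of the 9 genes had a conservative summit, cdc-48.1 and sel-11, against 11.5% of all protein-coding genes. The same 2 were left when the gene's own start had to be the nearest to the summit, against 10.1% of all genes.

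The second derlin gene, der-2 (WBGene00020109, chrIII:7221741-7223129, minus strand), had no ranked peak in replicate 1 and 1 in replicate 2, with a signal of 31.6, and 15.8% of genes with a ranked peak had a lower one. It lay 243 bp upstream of the start and inside hsp-75, an HSP90-like gene on the same strand that ends 103 bp before der-2. The derlin genes were identical at 51.3% of aligned coding positions and 49.5% of promoter positions, gaps counted as differences. No unrelated sequences were aligned for comparison, so the promoter values of this pair and of the CDC-48 pair do not show relatedness. In both the CDC-48 pair and the derlin pair, 1 copy had a thresholded peak in its promoter window in both replicates and the other had none. In the derlin pair this peak lay nearer to the start of tag-353 and cannot be given to cup-2 alone. The members of these pairs were chosen with the peaks known. Whether the pairs differ in this from other gene pairs was not tested.

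Across the 9 genes the ranked lists held 31 peaks in replicate 1 and 39 in replicate 2, and they formed 15 pairs, each of 1 peak per replicate with summits within 50 bp. Over the whole genome, 30.9% of the ranked peaks of replicate 1 had a replicate 2 summit within 50 bp. Of the 15 pairs, those at the cdc-48.1 and cup-2 promoters passed the IDR threshold in both replicates, and the other 13 passed it in neither. Genome-wide, there were 3105 thresholded peaks beside 56265 ranked ones in replicate 1, and 2983 beside 65301 in replicate 2. The 9 genes were listed with their peaks known, so nothing is read from these counts.

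The wider pathway was followed through 31 other genes listed by role, of which 25 matched the annotation. A conservative summit was present at 6 of the 25, and the larger set held a summit at 8, beside the 13.4% and 17.1% of all genes given above. By role, these 6 were 3 of 11 genes listed with the CDC-48 cofactors and 1 of 9 ligases and ubiquitin-conjugating enzymes. The others were 1 of 2 genes listed for substrate recognition and 1 of 3 shuttle or deubiquitinase genes. The substrate recognition gene was tag-353, whose summit is the one already counted for cup-2. Their replicate means had a median of 173.8, from 134.7 to 470.1, and the median over all 2644 genes was 144.3, with quartiles of 108.4 and 213.4. All 6 had their strongest conservative summit upstream of the start. Over all protein-coding genes, 2686 had a conservative summit in the window and 2184 had one in a promoter, so this place is not particular to the list. None of the 6 reached the level of cdc-48.1.

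The highest was ubc-6, which encodes a ubiquitin-conjugating enzyme of the ER membrane, with 483.9 in replicate 1 and 456.4 in replicate 2 (mean 470.1 ± 19.4, SD, n = 2) and a summit 299 bp upstream. Its peak was number 101 of the conservative set. At ubql-1, which encodes a ubiquilin that carries ubiquitinated proteins to the proteasome, replicate 1 had 253.3 and replicate 2 had 160.2, with the summit 547 bp upstream. Among the cofactors, ubxn-2, a UBX-domain gene, had 196.0 and 186.5 at 171 bp upstream. The replicates were further apart at ufd-3, with 205.1 and 107.7 at 114 bp upstream, and at ubxn-3, with 159.4 and 110.0 at 637 bp upstream. The sixth was tag-353, through the peak it shares with cup-2. The larger set added the ligase gene rnf-121, where replicate 2 alone had a ranked peak (133.4), and ubc-7, a ubiquitin-conjugating enzyme gene, with 64.3 and 105.2. No merged-set summit was found at ufd-2, ubxn-1, ubxn-4, ubxn-6, png-1, atx-3, chn-1 and cdc-48.3, which were listed with the cofactors. The same held for marc-6, hrdl-1, rnf-5, ubc-14, ubc-15 and ubc-26, and for mans-1, rad-23 and otub-2. At otub-2, replicate 2 had a thresholded summit and a strongest ranked signal of 202.4, while replicate 1 had no ranked peak.

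**Figure D4:**
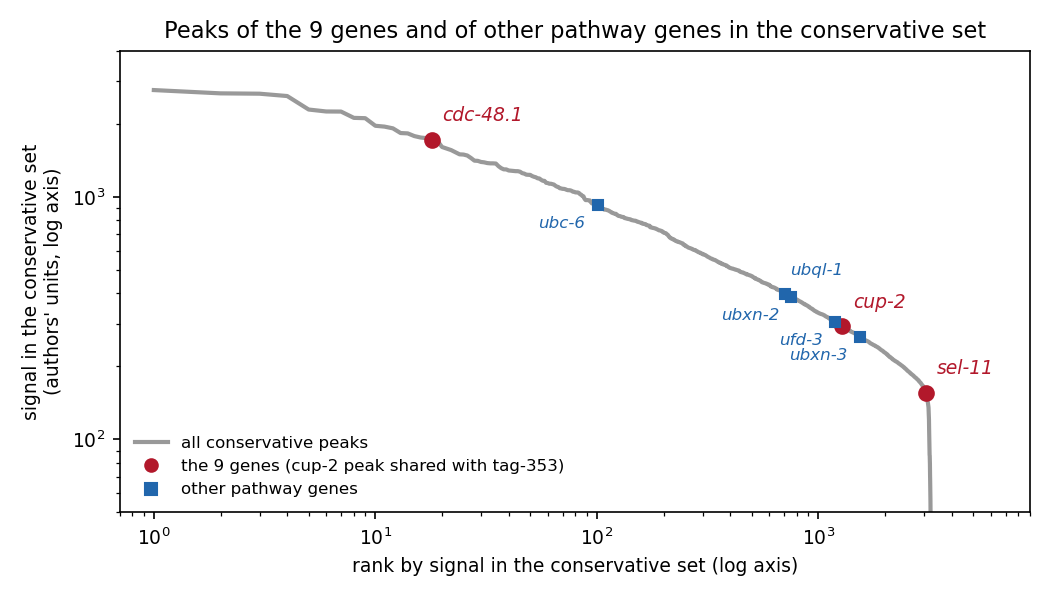
Signal of every peak of the conservative set (y, authors' units, log axis) against its rank by signal (x, log axis), with the strongest peaks of cdc-48.1, cup-2 and sel-11 as circles and those of other pathway genes as squares; signals below 50 are beyond the axis. The cdc-48.1 peak is number 18, the ubc-6 peak number 101, the cup-2 peak number 1282 and the sel-11 peak number 3071 of 3291.

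The 10 motifs were searched on both strands within 50 bp of 6 summits: the conservative summits of cdc-48.1, sel-11 and cup-2 and the strongest paired summits of cdc-48.2, ufd-1 and sel-1. The letters CCACG, part of the ER stress response element of mammals, lay 36 bp downstream of the cdc-48.1 summit and 34 bp downstream of the cup-2 summit. They were present near 18.7% of all 3291 conservative summits and in 21.7% of all promoters of 300 bp (250 before to 50 after the start). A match to the TATA box (the letters TATAAA) lay 41 bp upstream of the cdc-48.1 summit, and 4.38% of all summits and 37.9% of promoters held it. The other 8 motifs matched at none of the 6. They were the unfolded protein response element of mammals, TGACGTG (1.40% of summits, 2.93% of promoters), and the heat shock element GAANNTTC (7.02% and 18.5%). The rest were TTTGAA of the cell cycle homology region (12.9% and 62.5%), GCGCGAAA of E2F type (2.10% and 1.14%), GTAAACA of DAF-16 (1.85% and 4.77%), the GATA site TGATAA (330 of the 3291 summits, and 30.2% of promoters), the GC box GGGCGG (6.35% and 7.83%) and the E-box CACGTG (4.13% and 5.82%). A CCACG match can overlap a CACGTG match.

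In the 300 bp promoters, TTTGAA was present at 8 of the 9 genes, all but cdc-48.2, CCACG at 3 (cdc-48.1, ufd-1 and sel-1) and TGACGTG at 0. The 6 matches in the cdc-48.1 stretch shown above were 3 of TTTGAA or its reverse complement, 2 of TATAAA or its reverse complement, and 1 of CCACG, printed as its reverse complement 129 bp before the start. These are matches of letters and not binding sites. Bases G and C made up 41.6% of the 101 bases around the cdc-48.1 summit, 44.6% around sel-11 and 52.5% around cup-2, and the median over all conservative summits was 47.5%, with quartiles of 42.6% and 53.5%.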

How the data were processed

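The deposited files are peak lists of 2 samples. Per the file headers and their notes, each sample's alignment gave a ranked and a thresholded list, and both alignments together a conservative and a larger list, all on ce11. Which aligner and peak caller were used is not given in the sources used here. Both the signal of each peak and, in the ranked lists, the −log10 IDR were deposited by the authors. No scaling between samples is stated, so signal only describes, ranks or filters peaks. A control experiment named as possible in the labels is not analysed here. Lists without read counts give no depth, and precision is set by the 2 replicates.

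Gene windows ran from 1000 bp upstream to the end of the gene in Ensembl release 115 (WBcel235). A conservative summit's replicate value is that of the overlapping ranked peak with the nearest summit. Ranked summits within 50 bp were paired. Word uniqueness, motifs and sequences used the RefSeq WBcel235 genome. Identity came from global alignments of nucleotides. The search of gene windows and promoters and the distances to starts were tested on simulated peaks, and the other steps were not. The software was Python 3.11.15, numpy 2.4.6, pandas 2.3.3 and matplotlib 3.10.9. Named were all 9 genes, listed pathway genes, genes sharing a summit, and the gene nearest in log2 signal over both replicates. The 9 genes, the pathway list and the motifs were chosen with earlier results of these data known.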

Additional observations from a re-analysis of the deposited data

How the results depend on the processing

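No paired analysis was possible because the 2 samples form 1 group. Of 37 alternative values, 30 stayed within the replicate spread or, for counts, within 1.5 times, and 7 moved. Only summit positions could be labelled as reversed, by a change of side of the start, and none was. A further 6, the signals with 1 replicate left out (742.2 to 977.8 at cdc-48.1, 84.0 to 84.6 at sel-11, 135.2 to 138.4 at cup-2), are within 1 SD by construction with 2 replicates and were not counted. Some of the 30 could not change either. Positions from the end of the gene span were fixed, since cdc-48.1, sel-11 and cup-2 each have 1 transcript start. Keeping windows of at least 50% unique words only dropped npl-4.1 and npl-4.2, which had no conservative summit. The 1.5 rule also labels a change from 3 to 2 or from 6 to 4 as unchanged, whichever genes are left. The count of 3 genes with a conservative summit became 2 in the larger set, in each replicate's thresholded list and in promoters alone, each time without sel-11. It also became 2 with 500 bp upstream, or when the nearest start had to be the gene's own (an alternative chosen after seeing the data), both times without cup-2; 11.5% and 10.1% of all genes met these rules. Leaving out a replicate gave 2 for these genes, 2 in promoters and 6 to 8 for the pathway list, whose main count of 6 ran from 4 (500 bp upstream) to 8 (larger set). The moved values were summit positions, the cup-2 rank (1334 in the larger set) and the number of summits with any of the 10 motifs. The positions at cdc-48.1 were 154 and 155 in place of 165 bp upstream. At sel-11 replicate 2 gave 1525 in place of 1487 bp downstream, and cup-2 had 602 and 603 in place of 601 bp upstream. Summits with any motif were 4 of 6 within 100 bp in place of 2. These were the same summits as those with CCACG, which 27.7% of all conservative summits have within 100 bp. With 2 replicates an SD is imprecise, and a gene with no listed peak is not shown to be unbound at an unknown depth.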

Other observations

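Several of the 9 genes stand just behind another gene on the same strand, an arrangement that in the worm often marks an operon with 1 shared promoter, although no operon annotation was used here. A same-strand gene ended within 500 bp upstream of sel-11, ufd-1 and der-2, as at 3612 (18.1%) of all genes. A conservative promoter summit was present at 8.44% of those 3612 genes and at 11.5% of the other 16361. The gene 105 bp upstream of sel-11 is syx-5, which encodes a syntaxin of the early secretory pathway. Its promoter had a conservative summit, and its strongest ranked peaks had 167.4 in replicate 1, 323 bp upstream of its start, and 266.7 in replicate 2, 362 bp upstream. Both values were above those of the sel-11 peak itself, 84.6 and 84.0. The promoter of F19B6.1, in front of ufd-1, had no conservative summit and strongest signals of 55.5 and 117.6. The run of genes in which der-2 is the sixth begins with ndus-8, whose promoter had 54.0 and 62.6 and no conservative summit. These genes were looked at after the peaks of the 9 genes were known, and the values are a description.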
